A study of Mus musculus with 6 samples.

Results

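The mRNA-binding proteins that read AU-rich elements were followed at 8 genes, Zfp36, Zfp36l1, Zfp36l2, Khsrp, Hnrnpd, Elavl1, Tia1 and Tial1, out of 19057 genes annotated on the array. The genes were chosen by function, with earlier results of these data known. Every probe that the array annotation gives to one of their symbols was taken, 19 probes in all. The cells were lung fibroblasts at passage 1, grown in DMEM/F12 with 15% FCS, from mice 10 weeks old. One group, wt, came from 3 different p38+/+ mice and the other, ki, from 3 different p38ki/ki mice, which carry a knocked-in p38 allele on both chromosomes. RNA of each mouse was hybridised to 1 Illumina bead array, so n = 3 per genotype throughout. The labels name neither the p38 gene that carries the allele nor the change it makes.

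AU-rich elements are stretches of A and U in the 3′ untranslated part of many short-lived mRNAs, among them those of cytokines, growth factors and immediate early genes. Proteins of the ZFP36 family bind such an element through zinc fingers and call in the enzymes that shorten the poly(A) tail, after which the mRNA is decapped and degraded, while HuR, the product of Elavl1, binds similar elements and stabilises the mRNA. The p38 kinases, through the kinase MK2 (Mapkapk2), phosphorylate ZFP36 and thereby weaken its decay activity, which places these proteins between p38 signalling and the level of inflammatory transcripts.

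Zfp36 and Zfp36l1 are shown by their promoters because probes of both were lower in ki and passed the test. The sequences are those of RefSeq (GRCm38.p6), 5′ to 3′ on the gene's strand, from 250 bases before the annotated start to 50 after it. Zfp36 lies on the minus strand at chr7:28379179-28379478 and Zfp36l1 on the minus strand at chr12:80112964-80113263. Capitals mark matches on either strand to 6 motifs, namely the CArG box, read by serum response factor, the EGR site GCGNGGGCG, the ETS core CCGGAAG, the AP-1 site TGANTCA, the cAMP response element TGACGTCA and the TATA box TATAAA.
Zfp36: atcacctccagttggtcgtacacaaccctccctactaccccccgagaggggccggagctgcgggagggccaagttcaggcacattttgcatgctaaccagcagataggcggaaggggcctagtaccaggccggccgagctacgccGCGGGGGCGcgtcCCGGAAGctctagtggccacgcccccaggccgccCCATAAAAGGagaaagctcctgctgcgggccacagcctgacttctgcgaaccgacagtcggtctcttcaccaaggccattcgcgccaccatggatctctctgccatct
Zfp36l1: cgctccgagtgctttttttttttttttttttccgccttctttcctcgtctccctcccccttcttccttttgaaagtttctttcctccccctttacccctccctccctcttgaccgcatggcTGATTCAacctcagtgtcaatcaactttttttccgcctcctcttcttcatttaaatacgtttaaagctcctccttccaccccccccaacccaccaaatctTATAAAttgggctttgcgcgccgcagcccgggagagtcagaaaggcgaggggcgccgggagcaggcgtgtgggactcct
In the Zfp36 window the EGR site began 105 bases before the start, the ETS core 92 and the CArG box 58, and none of these matches overlapped another. The Zfp36l1 window held an AP-1 site 129 bases and a TATA box 29 bases before the start. Of 32851 promoter windows of the same length in the RefSeq table, 1.63% held a CArG box, 5.55% an EGR site, 8.86% an ETS core, 7.81% an AP-1 site, 1.79% a cAMP response element and 13.6% a TATA box. Of the 7 members with a window in the table, 1 other, Hnrnpd, held a CArG box, at the start itself, and an ETS core. Serum, growth factors and stress act on immediate early genes through CArG boxes and EGR sites. A match describes the letters of the window and is no measurement of binding.

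The arrays were of similar depth, with 38.87% to 40.92% of 45281 probes detected above the negative controls, and the mean background-subtracted signal was 712.3 to 846.7 on the wt arrays and 519.4 to 694.7 on the ki arrays. Levels are given on the log2 scale after normalisation. A difference is ki minus wt, with its standard error (SE), and a probe was tested when detected at p under 0.05 on at least 3 arrays. The labelled cell type was met in part: all 10 fibroblast markers were tested, at a summed normalised intensity of 86900 to 93700 in wt and 67200 to 70600 in ki. Of these markers 5 were lower and 0 higher in ki, and Postn was undetected in ki. Macrophage markers were bright in both groups (9 tested, 1 higher and 3 lower), at a summed normalised intensity of 136000 to 139000 in wt and 127000 to 135000 in ki. Mesothelial markers were higher in ki at 10 of 10 genes, with a summed intensity of 1530 to 1750 in wt and 10700 to 11400 in ki, and 2 of them (Krt19 and Gpm6a) were undetected in wt. Neutrophil markers were lower at 8 of 9, with 13000 to 13800 in wt and 3250 to 3740 in ki, and 4 of them (Mpo, Ctsg, Ngp and Camp) were undetected in ki. These 4, and Krt19 and Gpm6a, met the detection filter only through the group where they were higher, so their calls are a description. Epithelial markers were higher at 4 of 6 (Cdh1, Cldn3, Cldn4 and Krt7), with 1330 to 1440 in wt and 5250 to 5360 in ki. Elf3 and Scgb1a1 did not pass, and Epcam, Cldn7, Sftpb and Sftpc did not meet the detection filter. Smooth muscle markers were higher at 1 and lower at 2 of 6. None of 7 endothelial and 2 lymphocyte markers passed by limma, and 4 and 0 of them had an unadjusted p under 0.05. Of all genes tested 18% passed by limma at adjusted p under 0.05, 9.74% higher and 8.31% lower in ki. An unadjusted p under 0.05 was found for 32.4% of them. The marker shifts went with every difference below, and their part in the results was not tested. Fewer cells of a type and less RNA per cell cannot be told apart in such cultures.

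Of the decay factors of the ZFP36 family, Zfp36, which encodes tristetraprolin, fell 1.32-fold. Its paralogue Zfp36l2 was detected in wt alone and passed the threshold narrowly in the fit over genes. For Zfp36l1 the dimmest of 3 probes fell 1.58-fold and the other two did not pass. At all 5 probes of the family the ki arrays lay below the wt arrays without overlap. Of the 5, 2 passed in the fit over all probes, both lower, where 14.2% of all probes tested did, 7.06% lower. Of these 5 probes, 3 belong to Zfp36l1 alone. The Zfp36l2 probe met the detection filter only through the wt arrays, so its separation is a description. The groups were apart, in either direction, at 7 of the 14 member probes tested and at 35.5% of all probes tested.

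**Figure D1:**
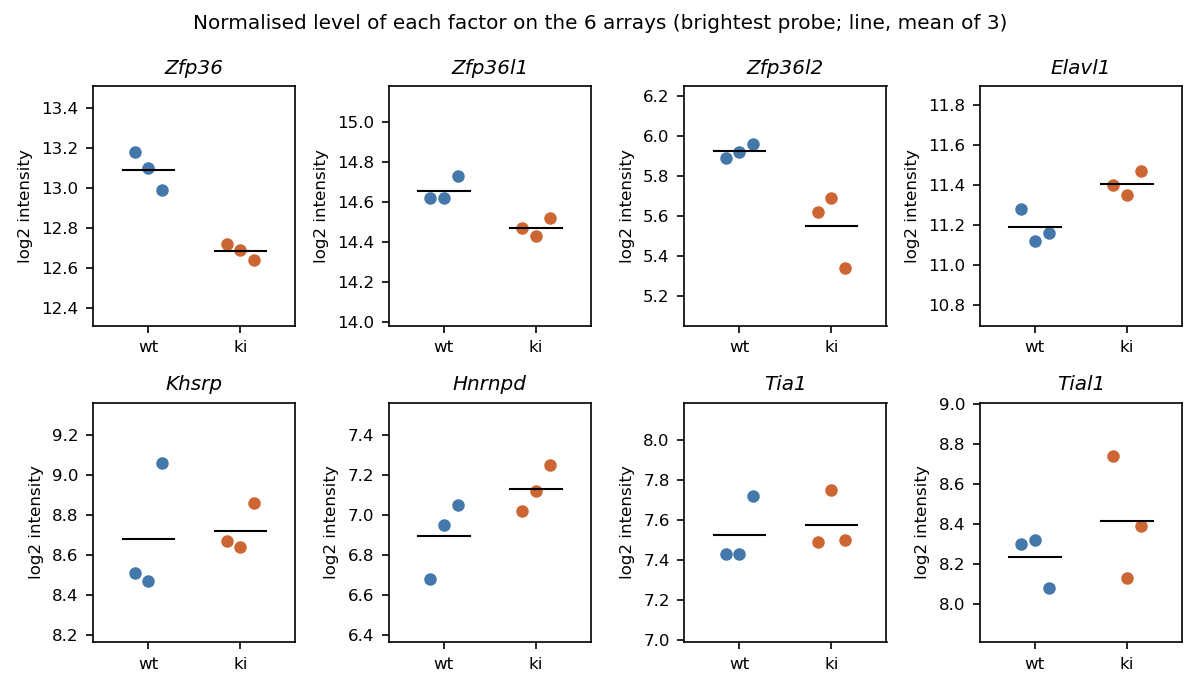
Normalised log2 intensity of each of the 8 factors at its brightest probe, with 1 point per array (blue, wt; orange, ki), the line at the mean of 3 arrays and a span of 1.2 log2 units on every vertical axis. The ki arrays all lie below the wt arrays for Zfp36, Zfp36l1 and Zfp36l2, all above them for Elavl1 (at -0.0585 under median scaling), and overlap with them for the other 4.

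Zfp36, the prototype of the family and itself an immediate early gene, was read by 1 probe. In the order of the replicate numbers, which is kept below, its deposited signal read 11500, 9330 and 8490 in wt. In ki it read 6500, 4680 and 6200. After normalisation the levels were 13.18, 13.10 and 12.99 in wt and 12.72, 12.69 and 12.64 in ki. The lowest wt array was above the highest ki array on both scales, although every wt array also had a higher mean deposited signal than every ki array. The mean went from 13.09 ± 0.0976 to 12.69 ± 0.0404 (SD, n = 3), a difference of -0.41 (SE 0.0761, 95% interval -0.587 to -0.225, limma adjusted p = 0.0129). Zfp36 passed with each 1 array left out (adjusted p 0.0188 to 0.0462) and in 18 of 19 alternative settings. The exception left out both the brightest wt array and the dimmest ki array (-0.358, adjusted p = 0.0949). In the limma fit over all probes the same probe passed (adjusted p = 0.0205), but in only 10 of 17 alternatives. There it missed the threshold in most fits with 1 array left out. Scaling every array to one median in place of quantile normalisation, called median scaling below, gave -0.744, with the median of all genes at -0.217.

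Zfp36l1 encodes a family member with the same type of zinc fingers. Its brightest probe read 14.62, 14.62 and 14.73 in wt and 14.47, 14.43 and 14.52 in ki. The groups were apart, but the difference of -0.18 (SE 0.0691, interval -0.349 to -0.020, limma adjusted p = 0.117) did not pass. The second probe had deposited signals of 8990, 6910 and 8540 in wt and 6290, 4520 and 6220 in ki, and a normalised difference of -0.19 (SE 0.0968, adjusted p = 0.248 over all probes). The dimmest probe stood at 7.53, 7.25 and 7.57 in wt and 6.99, 6.68 and 6.70 in ki. It fell by 0.66 (SE 0.128, interval -0.964 to -0.355, adjusted p = 0.0184 over all 18249 probes tested), with its deposited signal at 172 ± 32.9 in wt and 91.3 ± 24.7 in ki. Of the 3 probes 1 passed, and the differences at the others were smaller. The dimmest probe missed the threshold without wt replicate 1, wt replicate 3, ki replicate 2 or ki replicate 3 (adjusted p 0.055 to 0.0662), and without the brightest wt and dimmest ki array (0.138). The gene as a whole did pass when its probes were averaged (-0.345, adjusted p = 0.0355), with median scaling (-0.48, adjusted p = 0.0473), with scaling over detected probes (-0.273, adjusted p = 0.033) and with eBayes with trend and robust (-0.185, adjusted p = 0.00973).

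Zfp36l2, the last of the family on the array to be tested, was near background. Its probe gave deposited signals of 48.5, 42.7 and 45.5 in wt and 29.0, 27.1 and 20.4 in ki. It was detected on all 3 wt arrays (detection p 0.0192 to 0.0321) and on no ki array (0.0705 to 0.213). The normalised levels were 5.89, 5.92 and 5.96 in wt and 5.62, 5.69 and 5.34 in ki, so the groups did not overlap. The probe met the detection filter through the wt arrays alone, so a difference was built into its being tested. The measured difference was -0.37 (SE 0.103, limma adjusted p = 0.0497), which is given as a description. With each ki array taken at its lowest detected level, the wt mean of Zfp36l2 was 1.12-fold higher. That value has no error and rests on the same detection pattern, so it too is a description. The call was lost when the fit and the adjustment ran over all probes (adjusted p = 0.0661), without ki replicate 1 (0.0846) and without ki replicate 3 (0.067). It held in 3 of the 14 alternatives that tested the gene, with adjusted p from 0.0418 to 0.316.

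Khsrp and Hnrnpd, decay factors outside the ZFP36 family, did not pass. Khsrp encodes KSRP, a KH-domain protein that recruits decay enzymes, and its detected probe read 8.51, 8.47 and 9.06 in wt and 8.67, 8.64 and 8.86 in ki. The high value of wt array 3 put the groups in overlap. The difference was 0.04 (SE 0.165, 95% interval -0.348 to 0.436, limma adjusted p = 0.883), so changes within that interval were not excluded here. The other two Khsrp probes were detected on no array. Hnrnpd encodes AUF1, whose isoforms bind AU-rich elements with different effects on the mRNA. Its probe read 6.68, 6.95 and 7.05 in wt and 7.02, 7.12 and 7.25 in ki, with ki array 1 inside the wt range. The difference was 0.24 (SE 0.115, interval -0.039 to 0.510, adjusted p = 0.212). A second Hnrnpd probe was detected on no array.

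Elavl1, the stabilising factor of the set, stood on the other side of the ZFP36 genes under the main normalisation. Its brighter probe read 11.28, 11.12 and 11.16 in wt and 11.40, 11.35 and 11.47 in ki, with every ki array above every wt array. The difference of 0.22 (SE 0.0744, interval 0.039 to 0.393, limma adjusted p = 0.095) did not pass. Deposited signals before normalisation were 2550 ± 395 in wt and 2450 ± 492 in ki (SD, n = 3), and median scaling turned the difference to -0.0585. It passed in 1 of 19 alternatives, eBayes with trend and robust (0.216, adjusted p = 0.0194). The dimmer Elavl1 probe, detected on 1 wt and 3 ki arrays, differed by 0.25 (SE 0.164, adjusted p = 0.375 over all probes), and its groups overlapped.

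Tia1 and Tial1 encode related proteins that bind U-rich and AU-rich sequences, repress translation and collect in stress granules. Neither passed at its brightest probe. Tia1 read 7.43, 7.43 and 7.72 in wt and 7.49, 7.75 and 7.50 in ki, and the groups overlapped, at a difference of 0.05 (SE 0.116, interval -0.225 to 0.326, limma adjusted p = 0.801). Its other tested probes went apart, at 0.31 (adjusted p = 0.195) and -0.23 (adjusted p = 0.382), neither past the threshold over all probes. The last of these was detected on 3 wt and 1 ki arrays, and the fourth Tia1 probe was detected on 1 array and not tested. Tial1 read 8.30, 8.32 and 8.08 in wt and 8.74, 8.13 and 8.39 in ki, a difference of 0.18 (SE 0.160, interval -0.201 to 0.559, adjusted p = 0.484). Its second probe read 5.73, 5.85 and 5.61 in wt and 6.59, 6.22 and 5.87 in ki, at 0.50 (SE 0.182, adjusted p = 0.127), with all ki arrays higher. That probe passed with scaling over detected probes (0.657, adjusted p = 0.0404) and without ki replicate 3 (0.691, adjusted p = 0.0389). The remaining Tial1 probe was detected on 2 arrays and not tested.

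**Figure D2:**
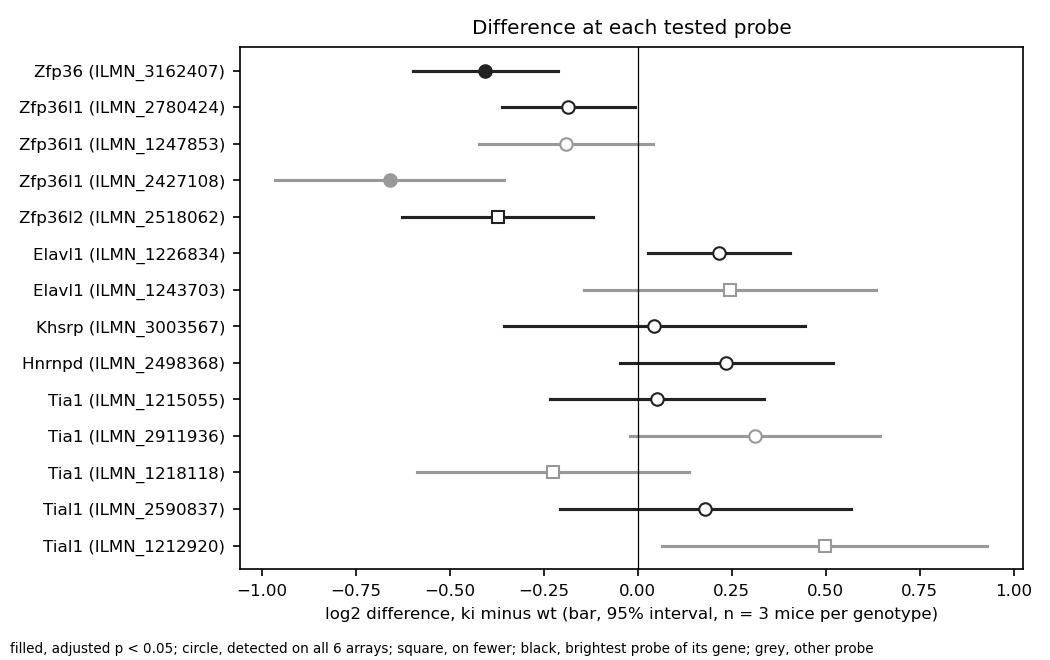
Difference between the genotypes (log2, ki minus wt) at each of the 14 tested probes, with its 95% interval, from the fit over all probes with n = 3 mice per genotype. Filled symbols passed at adjusted p under 0.05, and 2 of the 14 did, those of Zfp36 and the dimmest Zfp36l1 probe, both below 0.

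Counted together, all 8 genes were tested through at least 1 probe, and 14 of the 19 probes were tested. Of the 8 genes 2 were lower and 0 were higher in ki by limma at adjusted p under 0.05, where 18% of 10412 genes passed in either direction, 8.31% lower and 9.74% higher. Zfp36l2 is among the 2 although it met the detection filter only through the group where it was higher, and without it 1 of the other 7 passed. At an unadjusted p under 0.05 there were 4 of 8, Zfp36l2 among them, against 32.4% of all genes tested. The groups were apart, in either direction, for 4 of the 8, Zfp36l2 again among them, and for 38.4% of all genes tested. A share of 2 in 8, or 25%, lies near the background, so the count is no result about the 8 genes as a set. The median difference of the 8 was 0.047 and that of all genes 0.007. Over all probes 2 of 14 passed, both lower, where 14.2% of 18249 did, 7.18% higher and 7.06% lower. When each gene was read at its brightest probe in that fit, 1 of the 8, Zfp36, was lower and 0 higher, where 15.6% of genes passed, 8.34% higher and 7.24% lower.

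Beyond the 8 members, the genes of the pathway were read in 8 lists of 187 different names, 159 of which were tested. Counts that follow are of genes past the same threshold, beside the background of 18%. All 8 lists were chosen with earlier results of these data known, so none of their shares is independent evidence. Other binding proteins of AU-rich and related elements had 1 of 23 higher and 3 lower, with a median of -0.02. Nucleolin (Ncl), which binds the Bcl2 transcript, rose 1.40-fold, from 9.12 ± 0.0946 to 9.61 ± 0.0369 (limma adjusted p = 0.00573). Ncl missed the threshold under median scaling (0.25, adjusted p = 0.321) and without the brightest wt and dimmest ki array (adjusted p = 0.0513). Auh, an AU-binding enoyl-CoA hydratase, fell 1.40-fold (-0.48, SE 0.0859, adjusted p = 0.0107) and the helicase Dhx9 fell 1.31-fold, the latter not passing without those arrays (adjusted p = 0.0818). Hnrnpdl, the nearest relative of Hnrnpd, was 1.17-fold lower at its brightest probe (adjusted p = 0.0475), did not pass whenever 1 array was dropped (adjusted p reaching 0.122), and the highest of its 3 probes was at 0.00.

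Of 21 deadenylation genes 0 passed by limma and 2 had an unadjusted p under 0.05, with a median of -0.06. These were Btg2, an activator of the CCR4-NOT deadenylase, detected on 1 ki array, at -0.54 (adjusted p = 0.063), and the deadenylase partner Tnks1bp1 at -0.46 (adjusted p = 0.0823). Under median scaling both passed (-0.566 and -0.671). Of 18 decapping genes 1 rose, Lsm4, a subunit of the ring that binds shortened mRNA tails, by 1.23-fold (adjusted p = 0.028). Lsm4 missed the threshold in 5 of 6 settings with 1 array left out and stood at -0.0166 under median scaling. Exosome genes, the nuclease complex that degrades mRNA from its 3′ end, had 4 of 16 higher and 0 lower, a share of 25% beside the background of 18%. Exosc6 rose 1.47-fold (0.56, SE 0.0814, adjusted p = 0.00466) and Exosc7 1.31-fold, and both passed whichever array was dropped, Exosc7 no longer without the brightest wt and dimmest ki array (adjusted p = 0.0987). Exosc8 rose 1.22-fold and Exosc2, named here after its value was seen, 1.21-fold, and neither passed whenever 1 array was dropped (adjusted p reaching 0.105). With the mean of its probes Exosc2 stood at 0.198 (limma adjusted p = 0.359). None of the 4 passed under median scaling (0.0279 to 0.375), where 0 of the list were higher and 1 was lower. Of 12 stress granule partners of TIA1 and TIAL1 0 passed by limma and 2 had an unadjusted p under 0.05, G3bp1 at 0.31 (adjusted p = 0.0901) and Caprin1 at 0.21 (adjusted p = 0.113), which stood at -0.00256 and -0.0692 under median scaling. The lower of 2 tested probes was at -0.04 for G3bp1 and at 0.07 for Caprin1.

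Among kinases, phosphatase subunits and adaptor proteins that act on the ZFP36 proteins, 4 of 18 were higher and 0 lower, 22.2% beside 18%. Sfn, an adaptor of the 14-3-3 type found in epithelia, was undetected in wt. Its level with the knock-in was 6.76 ± 0.197 (SD), and it passed by limma (adjusted p = 0.000527). With each wt array taken at its lowest detected level, the ki mean was 2.02-fold higher, a value without an error. The Sfn probe met the detection filter through the ki arrays alone, so that p and that fold are a description. Without Sfn 3 of 17 genes of the list were higher. Sfn moved with the mesothelial and epithelial markers above. Mapk13 (p38 delta) was 1.79-fold and Mapk14 (p38 alpha) 1.22-fold higher, the latter at 0.012 with median scaling. Mapk14 missed the threshold in 5 of 6 settings with 1 array left out (adjusted p up to 0.0757). Ywhah, named after its value was seen, was 1.18-fold higher, at -0.0906 under median scaling, and did not pass whenever 1 array was dropped. Mapkapk2, whose product phosphorylates ZFP36, differed by 0.13 (SE 0.113) and did not pass.

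Transcripts known to carry AU-rich elements changed in both directions. Of 36 tested 8 rose and 9 fell, 47.2% beside the background of 18%, with a median of 0.06. This list was written with results for several of its genes known, so its share is no independent evidence. Cxcl1, a neutrophil-attracting chemokine, rose 2.16-fold, from 12.70 ± 0.0349 to 13.81 ± 0.0855 (SD). The G1 cyclin Ccnd1 rose 1.74-fold and the survival factor Bcl2 1.67-fold, although the lowest of 3 Bcl2 probes was at 0.06. The hyaluronan synthase Has2 fell 4.02-fold, from 11.01 ± 0.0761 to 9.01 ± 0.0391, the cytokine Lif 2.05-fold and the hypoxia factor Hif1a 1.83-fold. Lif missed the threshold without wt replicate 1, wt replicate 3 or ki replicate 1 (adjusted p up to 0.0553). The other genes of the list that passed, named after their values were seen, were Tnf, Il1a, Il1b, Ccl2 and Irf1, which were higher, and Il6, Ptgs2, Vegfa, Ccl3, Myc and Plaur, which were lower. Tnf rose 1.36-fold (0.45, SE 0.0981, adjusted p = 0.0224), whereas Il6 fell 1.82-fold (-0.86, SE 0.0865, adjusted p = 0.00105) and Ptgs2, detected on 1 ki array, was 1.67-fold lower (adjusted p = 0.032). Tnf missed the threshold in 3 of 6 settings with 1 array left out and under median scaling (0.202, adjusted p = 0.429), and Ptgs2 in 4 of 6 settings with 1 array left out. Il1a, Il1b, Ccl2 and Irf1 also missed it under median scaling (0.266 to 0.444, adjusted p 0.0701 to 0.291). Myc, detected on 1 ki array, missed it in 4 of 6 settings with 1 array left out and Ccl2 in 1 of 6. Plaur missed it without the brightest wt and dimmest ki array (adjusted p = 0.0784). Under median scaling 3 of the list were higher and 10 lower.

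**Figure D3:**
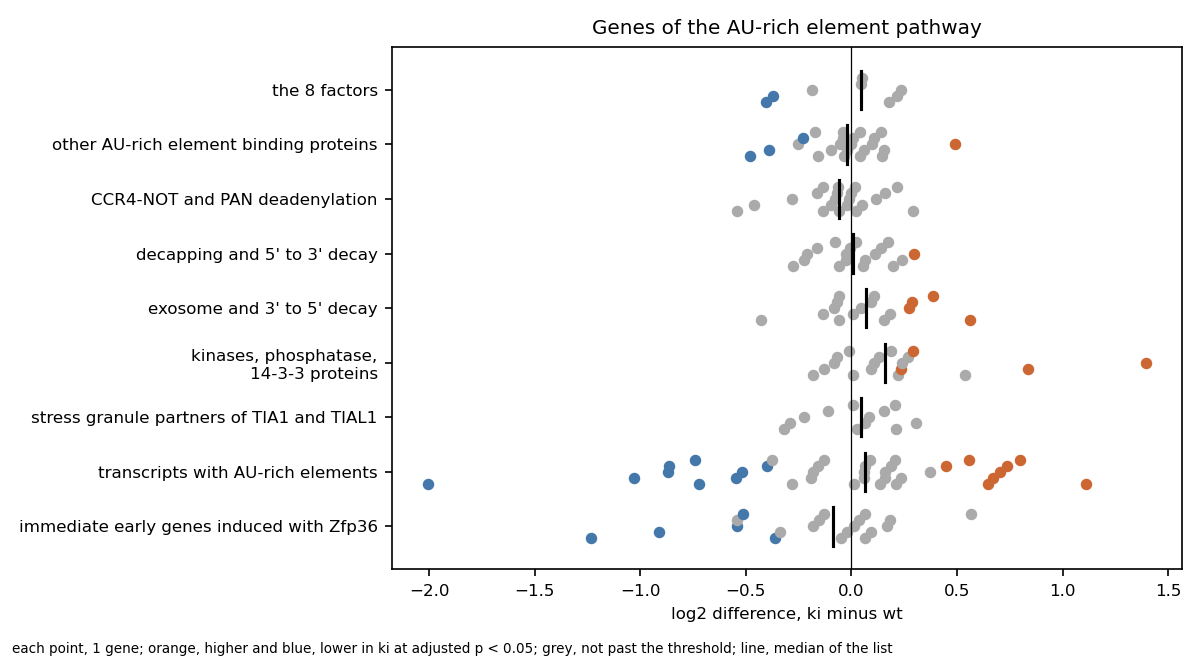
Difference between the genotypes (log2, ki minus wt) of the 8 factors and of every tested gene in the 8 pathway lists, 1 point per gene, with the median of each list as a line (orange, higher and blue, lower at adjusted p under 0.05). The transcripts with AU-rich elements run from -2.006 to 1.109, with calls on both sides, and the deadenylation genes lie between -0.542 and 0.291 with none past the threshold.

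Immediate early genes, which serum and stress induce together with Zfp36, had 5 of 20 lower and 0 higher, 25% beside 18%, with a median of -0.09. Egr3 fell 1.88-fold (-0.91, SE 0.0721, adjusted p = 0.000456), Junb 1.43-fold, Jund 1.46-fold and Fosb 1.29-fold, and Nr4a2, detected on 2 ki arrays, was 2.36-fold lower. Junb and Fosb were named after their values were seen. Fos (0.01) and Egr1 (0.17), the best-known genes of the list, did not pass. Fosb and Jund each missed the threshold in 5 of 6 settings with 1 array left out and Nr4a2 in 2 of 6, while Egr3 and Junb passed in all 6, Junb no longer without the brightest wt and dimmest ki array (adjusted p = 0.0835).

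Of all genes tested, those whose levels followed Zfp36 most closely over the 6 arrays were Tbc1d9 (Pearson r = 0.9989), Itga1 (0.9941) and Btc (0.9935). Each was lower in ki, at -0.55, -0.86 and -0.46, and 274 genes had an r above 0.95. With 2 groups of 3 arrays such values are set mainly by the difference between the groups.

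**Figure D4:**
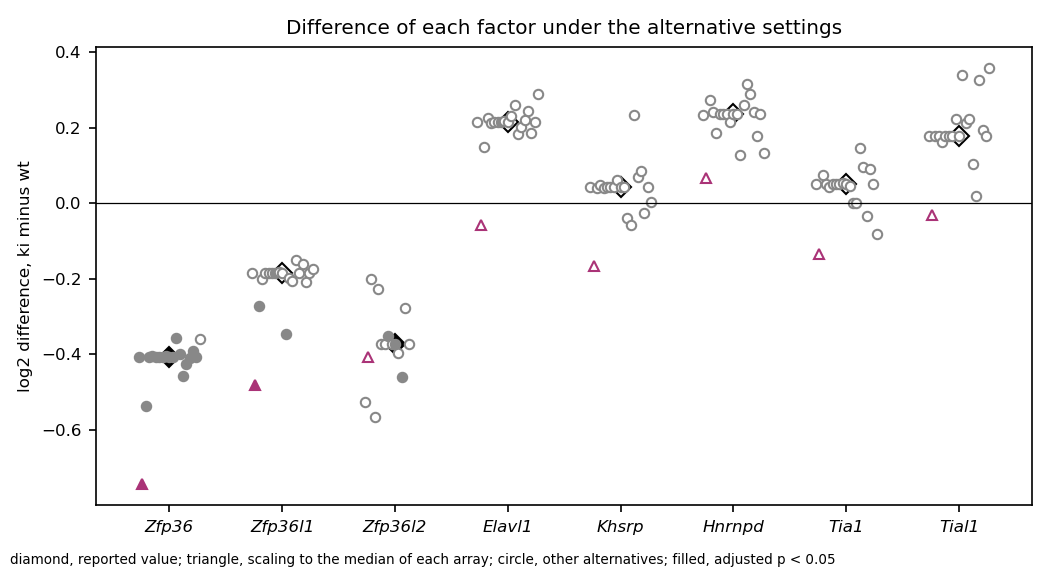
Difference of each of the 8 genes (log2, ki minus wt) as reported (diamond), under scaling to the median of each array (triangle) and under the other alternatives (circles), filled where adjusted p was under 0.05. Zfp36, Zfp36l1 and Zfp36l2 stay below 0 in every setting that tested them, Hnrnpd stays above 0, and the other 4 cross 0 in at least 1 setting.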

How the data were processed

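Illumina bead arrays of 6 mice were read from 2 tables that the authors deposited. The deposited intensity values were background-subtracted on a linear scale and not normalised between arrays, as their negative values and unequal means show. A second deposited table holds intensities normalised by the authors, and the series value table equals it in 100% of cells. The detection p-value deposited beside each signal, per the file headers, falls as that signal rises. The scanner software is not given in the sources used here, nor is the authors' normalisation.

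R 4.3.3 with limma 3.58.1 was used. Background was corrected by normexp, with the negative controls inferred from detection, and 16 was added before quantile normalisation and log2. Of 45281 probes 34885 carried 1 symbol, updated by gene identifier, and 18249 had a detection p under 0.05 on 3 or more arrays and were tested. A gene was its brightest probe (10412 genes). The difference ki minus wt was fitted in limma (lmFit, eBayes) and Benjamini-Hochberg adjustment over genes at 0.05. Other probes of a gene were read from the same fit over all probes. The number of arrays limits the precision, with a median residual SD of 0.119. The fit was tested on simulated data. Replicate numbers were not taken to pair the arrays, as the mice were different animals. Correlations of deviations were 0.020, 0.024 and 0.088 for same-numbered arrays and -0.092 to 0.073 for the others. With 3 arrays per genotype these values cannot settle whether same-numbered arrays shared any processing.

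The members, the lists and the naming rule were chosen with earlier results of these data known. The rule named all members, up to 3 risers and 3 fallers of each list that passed, or the 2 smallest p where none did, and the 3 genes closest to the member of smallest p. Promoters came from RefSeq (GRCm38.p6). Python 3.11.15 and matplotlib 3.10.9 drew the figures.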

Additional observations from a re-analysis of the deposited data

How the results depend on the processing

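Alternatives changed the background correction, the scaling (one median per array, or over detected probes), the values (the authors' normalised intensities), the offset (50), the detection filter (none, or stricter), the moderation, the array weights, the replicate block, the choice of probe and the arrays used. Those chosen after seeing the data were a fit over all tested probes and a fit without the brightest wt and dimmest ki array. The number of members passing was 1 without background correction, with the authors' intensities, offset 50, no detection filter, the stricter filter, the replicate block and the fit over all probes, 0 without the brightest wt and dimmest ki array, and 1 to 2 with 1 array left out. It was 3 with the mean of a gene's probes and with eBayes with trend and robust, and 2 in the other settings. All genes passing numbered 1221 to 1414 with 1 array left out, 828 without those 2 arrays and 1354 to 2591 in the other settings (1879 as reported, and 2591 with eBayes with trend and robust). List genes, 35 as reported, numbered 23 to 27 with 1 array left out and 19 without those 2 arrays.

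Zfp36l2 missed the threshold without background correction (-0.527), with scaling to the median (-0.408), scaling over detected probes (-0.201), the authors' intensities (-0.566), offset 50 (-0.226), and at -0.373 with no filter, eBayes with trend and robust, the replicate block or the fit over all probes. With ki arrays left out it ran from -0.459 to -0.276, and without a wt array it was too seldom detected to be tested, as under the stricter filter. Zfp36 missed the threshold without the brightest wt and dimmest ki array (-0.358). In the fit over all probes Zfp36 missed it with no detection filter (adjusted p = 0.0552) and in 5 of the 6 fits with 1 array left out (0.0502 to 0.0689). Zfp36l1 passed with scaling to the median (-0.48), scaling over detected probes (-0.273), the mean of its probes (-0.345) and eBayes with trend and robust (-0.185), and Elavl1 passed with the last (0.216).

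Scaling to the median put the median gene at -0.217, with 401 genes higher and 1511 lower against 1014 and 865 as reported, and turned Elavl1 (-0.0585), Khsrp (-0.167), Tia1 (-0.134) and Tial1 (-0.0307) below 0; each lay above that median gene. Khsrp ran from -0.0588 to 0.232 and Tia1 from -0.0345 to 0.147 with 1 array left out. Without the brightest wt and dimmest ki array Tia1 stood at -0.0827 and the dim Elavl1 probe at -0.00416. The cause of these changes was not tested. The replicate block, under numbers that do not pair the mice, gave 807 genes higher and 703 lower. Signal over background limits Zfp36l2, the dim probes of Elavl1, Tia1 and Tial1, and the 5 member probes not tested.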
